A study of Mus musculus with 6 samples.

Results

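The expression of 41 genes of the cell division cycle was examined in full-thickness dorsal skin of mice treated with vehicle or 3% rebamipide. The set consisted of the rows of the deposited expression table whose gene name was on a list of proliferation genes, and all 41 names were found among the 21959 genes of the table. All 41 passed the expression filter, which left 14875 genes for testing.

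Male C57BL/6 mice of 7 weeks were shaved on the back in telogen, the resting phase of the hair cycle, and treated once a day on the skin. The vehicle group (n = 3 mice) received 30% dipropylene glycol in 70% water, and the rebamipide group (n = 3 mice) received 3% rebamipide, a quinolinone derivative used as a mucosal protective drug. Skin was taken on day 7 and poly-A RNA was sequenced in bulk, 1 library per mouse. None of these mice served in the other assays of the study, and the labels give no hair cycle stage for the single mice at day 7.

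Before a cell divides, DNA is copied in S phase and the chromosomes are then separated in mitosis. Transcripts for DNA replication accumulate at the passage from G1 into S phase under E2F transcription factors, and transcripts for mitosis accumulate in G2 and M phase. Many promoters of mitotic genes carry CHR elements and CCAAT boxes. The DREAM complex represses such promoters through the CHR in resting cells and early G1, and the MuvB core acts on them with B-MYB and FOXM1 in G2 and M phase. In skin, dividing cells are found in the basal epidermis and, in far larger numbers, in the matrix of the growing hair follicle, so the level of these transcripts in a piece of skin moves with the hair cycle.

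To show the regulatory sequence that the genes of each phase share, the RefSeq promoter windows (GRCm38.p6, 250 bases before and 50 after the transcription start) were searched for 3 motifs on both strands: the CCAAT box (CCAAT), the CHR (written TTTGAA, or in its other form TTCGAA) and the core of the E2F site (written TTCCCGC, or in its other forms TTCGCGC, further TTGCCGC and lastly TTGGCGC). A window was given for 35 of the 41 members and for 11673 of the 14875 genes tested. For genes with several windows, such as Mcm7 and Prc1 (2 each), the first given was used. Tpx2, Foxm1, Kif20a, Aurkb, Mcm4 and Ccna2 had no entry. The 3 mitotic members with the most matches are printed from their first base to the base before the start, 5′ to 3′ in the direction of the gene, with matches in capitals. Top2a encodes the topoisomerase that untangles sister chromatids and lies on the minus strand (chr11:99024190-99024439). Cdk1 encodes the kinase that starts mitosis (minus strand, chr10:69352913-69353162). Ube2c encodes the ubiquitin-conjugating enzyme of the anaphase-promoting complex (plus strand, chr2:164769679-164769928).
Top2a: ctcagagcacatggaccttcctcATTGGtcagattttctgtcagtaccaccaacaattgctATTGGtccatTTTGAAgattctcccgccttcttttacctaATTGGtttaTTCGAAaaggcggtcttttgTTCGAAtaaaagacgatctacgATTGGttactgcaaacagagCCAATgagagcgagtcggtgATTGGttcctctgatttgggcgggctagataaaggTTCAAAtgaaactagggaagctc
Cdk1: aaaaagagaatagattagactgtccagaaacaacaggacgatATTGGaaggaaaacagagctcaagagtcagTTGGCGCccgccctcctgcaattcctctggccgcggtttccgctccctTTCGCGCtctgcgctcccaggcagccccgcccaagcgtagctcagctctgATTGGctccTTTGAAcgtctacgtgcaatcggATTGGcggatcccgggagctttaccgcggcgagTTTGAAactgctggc
Ube2c: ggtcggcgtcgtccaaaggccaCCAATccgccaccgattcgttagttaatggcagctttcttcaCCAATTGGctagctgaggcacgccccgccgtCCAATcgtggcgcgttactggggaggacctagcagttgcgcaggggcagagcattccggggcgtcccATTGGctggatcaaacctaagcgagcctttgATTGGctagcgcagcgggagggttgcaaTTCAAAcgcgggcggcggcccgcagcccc

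The same bases are printed for 3 replication members with the most matches (Mcm3 had as many as Mcm5 and a lower mean level), which encode subunits of the MCM helicase that opens the DNA at replication origins. Mcm6 lies on the minus strand (chr1:128359706-128359955), Mcm7 on the minus strand (chr5:138171884-138172133) and Mcm5 on the plus strand (chr8:75109259-75109508).
Mcm6: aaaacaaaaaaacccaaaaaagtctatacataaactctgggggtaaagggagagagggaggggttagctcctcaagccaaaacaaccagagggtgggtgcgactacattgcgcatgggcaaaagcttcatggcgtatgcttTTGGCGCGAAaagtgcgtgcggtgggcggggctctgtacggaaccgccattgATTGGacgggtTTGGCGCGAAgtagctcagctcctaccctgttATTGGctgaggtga
Mcm7: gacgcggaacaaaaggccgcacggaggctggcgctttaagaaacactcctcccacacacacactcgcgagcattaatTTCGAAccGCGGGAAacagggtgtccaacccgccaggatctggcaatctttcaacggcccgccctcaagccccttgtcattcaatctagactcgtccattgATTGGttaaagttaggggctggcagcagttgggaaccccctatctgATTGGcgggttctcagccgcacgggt
Mcm5: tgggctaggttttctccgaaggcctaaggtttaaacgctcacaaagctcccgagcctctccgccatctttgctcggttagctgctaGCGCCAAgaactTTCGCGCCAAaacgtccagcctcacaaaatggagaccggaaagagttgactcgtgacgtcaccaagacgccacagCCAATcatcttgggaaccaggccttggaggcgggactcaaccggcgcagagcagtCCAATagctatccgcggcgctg

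The 3 mitotic windows held CCAAT boxes and CHR elements side by side, with 6 CCAAT boxes and 4 CHR matches in Top2a, and the window of Cdk1 also held 2 E2F cores. E2F cores made up 5 of the 7 matches of Mcm6, and 3 of the matches each of Mcm7 and Mcm5, counting the bases after the start. Some matches share bases: TTGGCGC overlaps the reverse complement of TTCGCGC in the run TTGGCGCGAA of Mcm6, and a CCAAT box on one strand overlaps one on the other in Ube2c. TTCGAA reads the same on both strands and was counted once.

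A CHR was found in 18 of 23 windows of mitotic members (78.3%), in 3 of 10 windows of replication members and in 14.4% of the windows of all genes tested. The E2F core was found in 3 of 23 mitotic windows (13.0%), in 6 of 10 replication windows and in 15.9% of all windows. A CCAAT box was found in 29 of the 35 windows of the set (82.9%) against 38.1% of all windows, and a CCAAT box together with a CHR in 17 of 23 mitotic windows (73.9%) against 6.02%. Of the windows of other mitosis genes, 35 of 51 held a CHR (68.6%), 15 the E2F core (29.4%) and 27 a CCAAT box with a CHR (52.9%). Of those of other replication genes, 15 of 27 held the E2F core (55.6%), 4 a CHR (14.8%) and 14 a CCAAT box (51.9%, against 9 of 10 in the replication members). No difference between these shares was tested. The windows of Birc5, Tyms, Nusap1, E2f1 and Nuf2 held none of these letter strings. A match is a string of letters in a window and not a measured binding site.

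**Figure D1:**
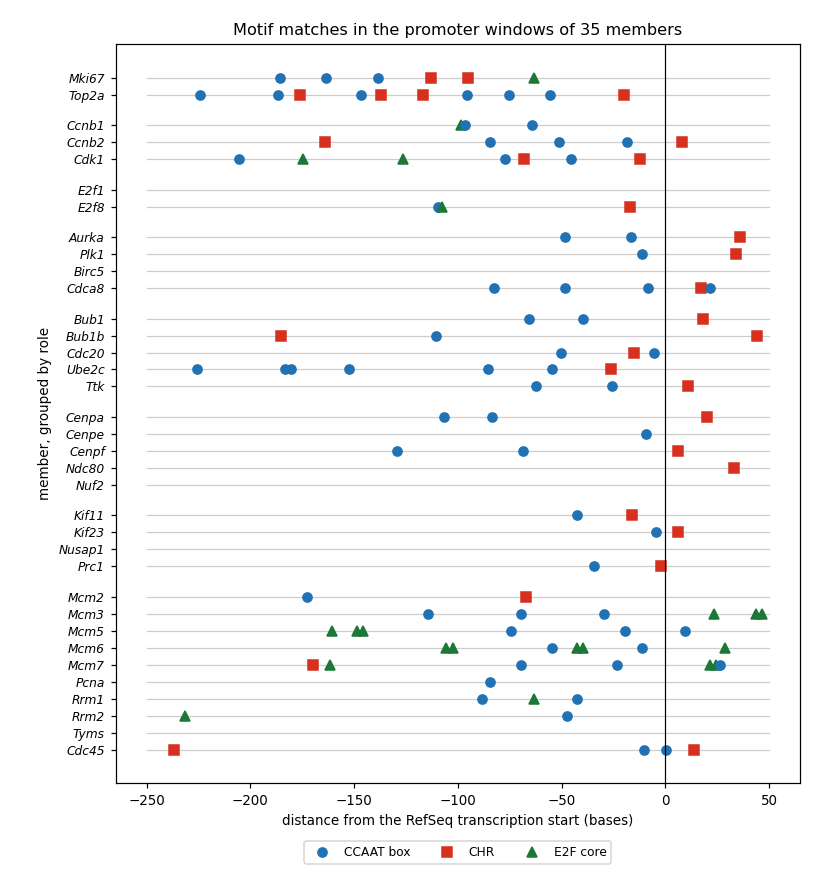
Position of motif matches in the promoter windows of the 35 members with a RefSeq entry, in bases from the transcription start (x axis), with 1 row per member grouped by role. Circles stand for CCAAT boxes, squares for CHR matches and triangles for E2F cores, and E2F cores are seen mainly in the rows of the replication members while CHR matches fill the rows of the mitotic members.

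Between 38676018 and 39915276 reads per library were counted for vehicle and between 32709801 and 34706852 for rebamipide. Levels are given as CPM, the reads of a gene scaled to the size of the library after TMM normalization, and 3 counts correspond to 0.0988 to 0.117 CPM in the rebamipide libraries. This limit covers counting error only. Rebamipide library 3 stood apart in its epidermal content. Krt14, the keratin of basal keratinocytes and a defining marker of the labelled tissue, was at 0 counts there against 361 and 238 CPM in rebamipide libraries 1 and 2, and its partner Krt5 was at 0.153 CPM against 435 and 209 CPM. Ucp1, the thermogenic protein of brown fat, was at 0 counts in the 3 vehicle libraries and was counted in the 3 rebamipide libraries, whose summed level of 8 brown fat markers was 4861 to 12574 CPM against 221 to 403 CPM. Counts of calls over all members and the median of the members are therefore given with and without rebamipide library 3. Counts and medians by role are given with all libraries only. In bulk tissue, fewer dividing cells and less of these RNAs per cell cannot be told apart.

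All 41 genes had a lower fitted level in rebamipide-treated skin, and the median log2 fold change (rebamipide minus vehicle) was -2.39, against -0.17 for all genes tested. The range was from -3.88 for Bub1 to -0.13 for Cdc45. The mitotic members had the larger differences, with a median of -2.61 over 27 genes, and the 11 replication members had a median of -1.42. This difference between roles was not tested. After Benjamini-Hochberg adjustment over all genes, edgeR's quasi-likelihood test called 5 of the 41 members lower (12.2%, where 6.51% of all genes tested were called lower) and 0 higher (14.1% of all genes). The 5 were Bub1, Ndc80, Kif11, Kif23 and Nusap1. No member was higher at an unadjusted p-value under 0.05 either, and 22 were lower at that level (18.8% of all genes). At the thresholds of the study (unadjusted p under 0.05 and a log2 fold change under -1) 21 of 41 were lower (51.2%, against 14.5% of all genes).

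The 2 groups did not overlap, with all rebamipide mice lower, for 25 of 41 members (61.0%, against 24.0% of all genes). In the other 16 rebamipide library 1 was above vehicle library 3, which held for 7440 of all 14875 genes. Without rebamipide library 1 the groups did not overlap in 40 members (36.7% of all genes), without vehicle library 3 in 39 (31.9%), and without vehicle library 1, vehicle library 2, rebamipide library 2 or rebamipide library 3 in 24, 25, 24 and 24 (32.4%, 25.8%, 26.4% and 24.9%). Rebamipide libraries 2 and 3 were below all vehicle libraries in 40 of 41 members, which held for 36.6% of all genes, and the exception was Cdc45. In the 5 called members the groups did not overlap.

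**Figure D2:**
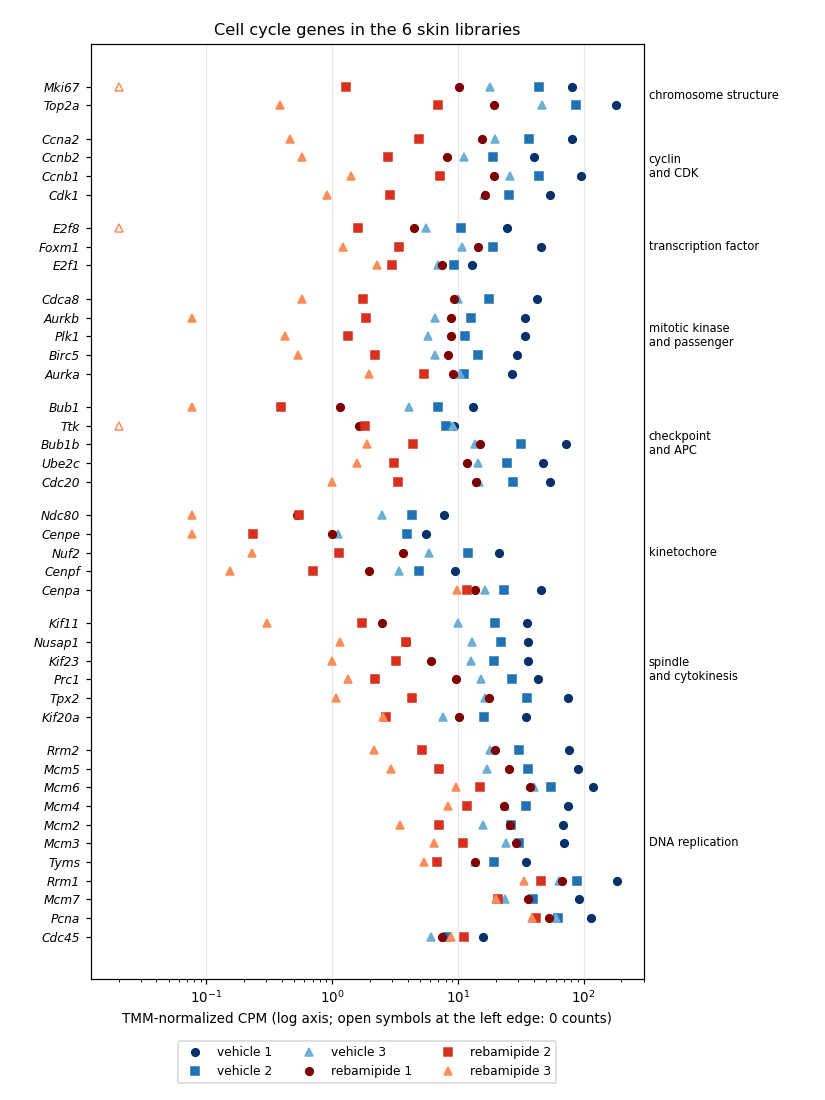
Normalized CPM (log axis) of the 41 members in each of the 6 libraries, with blue symbols for vehicle and red symbols for rebamipide, grouped by role. Vehicle library 1 is at the right end of all 41 rows, and open symbols at the left edge mark the 3 genes at 0 counts in rebamipide library 3.

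The spread within each group was wide. Vehicle library 1 was the highest of the 6 libraries for all 41 members (31.2% of all genes), and rebamipide library 3 was the lowest for 40 (31.1% of all genes). The highest vehicle level was a median of 3.59 times the lowest, against 1.65 times over all genes. The median SD of the log2 level was 0.92 in the vehicle group and 1.46 in the rebamipide group, against 0.37 and 0.39 for all genes. Summed over the 41 members, the level was 2274, 1081 and 668 CPM in vehicle libraries 1, 2 and 3 and 614, 277 and 173 CPM in rebamipide libraries 1, 2 and 3. Vehicle library 3 and rebamipide library 1 thus lay close together, and the mice of 1 group differed from each other more than these 2 did. In raw terms the members took 0.290%, 0.133% and 0.0807% of the counts of the vehicle libraries and 0.0570%, 0.0206% and 0.0130% of those of the rebamipide libraries.

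The members placed the libraries alike, within groups as well as between them. In 37 of 41 members rebamipide library 1 was above library 2 and library 2 above library 3 (31.5% of all genes), and in 40 of 41 the vehicle libraries were placed as 1, 2, 3 from high to low (36.3%), with Ttk as the exception. A single arrangement of all 6 libraries, with vehicle 1, 2 and 3 above rebamipide 1, 2 and 3, held for 22 members and 6.55% of all genes. The same arrangement with rebamipide 1 above vehicle 3 held for 15 members and 2.66% of all genes.

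Mki67 and Top2a are the most used markers of dividing cells. Mki67, which encodes the Ki-67 protein that coats mitotic chromosomes, was at 81.0, 44.3 and 18 CPM with vehicle and at 10.2, 1.29 and 0 CPM with rebamipide. The groups did not overlap, and the means were 47.8 ± 31.7 CPM (SD, n = 3) and 3.82 ± 5.54 CPM (SD, n = 3). The log2 fold change was -3.64 (standard error, SE, 1.62, adjusted p = 0.147 in edgeR). Rebamipide library 1 moved it most, to -6.21 when that library was left out (adjusted p = 0.0507, edgeR), and without rebamipide library 3 it was -3.05. An exact permutation test on log2(CPM + 0.5), two-sided, returned p = 0.1, which is the smallest value that 3 against 3 mice allow. The difference on that scale was -4.26, and it was -5.44 without rebamipide library 1 and -3.23 without rebamipide library 3. Top2a was at 182, 86.4 and 46.9 CPM with vehicle and at 19.2, 7.01 and 0.382 CPM with rebamipide. The groups did not overlap here either (log2 fold change -3.56, SE 1.25, adjusted p = 0.0883 in edgeR). Both genes missed the threshold of edgeR, and DESeq2 called both lower.

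The cyclins and their kinase drive entry into mitosis, and none of the 4 passed the adjusted threshold of edgeR (6.51% of all genes were called lower). Ccnb1, the main mitotic cyclin, was at 94.7, 44.3 and 26.0 CPM with vehicle and at 19.3, 7.17 and 1.41 CPM with rebamipide (log2 fold change -2.56). Ccna2, the cyclin of S and G2 phase, was at 80.4, 37.0 and 19.8 CPM with vehicle and at 15.7, 4.91 and 0.458 CPM with rebamipide. Ccnb2 was likewise free of overlap (log2 fold change -2.61, adjusted p = 0.1 with edgeR). For Cdk1 itself, rebamipide library 1 (16.4 CPM) was level with vehicle library 3 (16.3 CPM), and the log2 fold change was -2.25.

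The kinetochore links chromosomes to spindle fibres, and all 5 of its members were free of overlap (24.0% of all genes) and past the thresholds of the study (14.5% of all genes). This role was singled out after its values were seen, and 1 of the 5 was called after adjustment. Ndc80 encodes the microtubule-binding subunit of the complex named after it. It was at 7.71, 4.33 and 2.48 CPM with vehicle and at 0.527, 0.546 and 0.0763 CPM with rebamipide, and the difference passed (log2 fold change -3.64, SE 0.82, adjusted p = 0.0294 in edgeR). Its partner Nuf2 was at 21.1, 12.0 and 5.88 CPM with vehicle and at 3.69, 1.13 and 0.229 CPM with rebamipide (adjusted p = 0.0814, edgeR). The motor Cenpe and the kinetochore protein Cenpf had log2 fold changes of -3.01 and -2.65. Cenpa, the histone H3 variant that marks the centromere, differed least, at 46.0, 23.1 and 16.4 CPM with vehicle and 13.6, 11.9 and 9.85 CPM with rebamipide (log2 fold change -1.27).

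The spindle checkpoint holds anaphase until all chromosomes are attached, and the anaphase-promoting complex (APC) then starts it. Bub1, a checkpoint kinase, had the largest fitted difference of the set. It was at 13.1, 7.01 and 4.08 CPM with vehicle and at 1.15, 0.390 and 0.0763 CPM with rebamipide (log2 fold change -3.88, SE 0.97, adjusted p = 0.0389 in edgeR). The last of these values stands for 2 counts, as it does in Ndc80, Cenpe and Aurkb, and is under the limit of 3 counts. Ttk, the kinase that recruits the checkpoint proteins, was the member with the least spread in the vehicle group, at 9.31, 7.98 and 9.09 CPM, and was at 1.65, 1.83 and 0 CPM with rebamipide. Its log2 fold change was -2.92 with an adjusted p of 0.123 from edgeR, and without rebamipide library 3 it passed (adjusted p = 0.0279, edgeR). For Bub1b, which encodes the checkpoint protein BubR1, rebamipide library 1 (14.9 CPM) was above vehicle library 3 (13.6 CPM). Cdc20, the activator of the APC, and Ube2c had log2 fold changes of -2.39 and -2.40.

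Spindle and cytokinesis genes held 3 of the 5 called members, among 6 genes of this role (6.51% of all genes were called lower). Kif11, the motor that pushes the spindle poles apart, was at 35.5, 19.7 and 10 CPM with vehicle and at 2.47, 1.71 and 0.305 CPM with rebamipide (log2 fold change -3.85, SE 0.86, adjusted p = 0.0292 in edgeR). Nusap1, a microtubule-binding protein of the spindle, was at 36.3, 22.2 and 12.9 CPM with vehicle and at 3.89, 3.90 and 1.14 CPM with rebamipide (log2 fold change -2.99, SE 0.62, adjusted p = 0.0248 in edgeR). Kif23, the motor of the central spindle, was at 35.9, 19.3 and 12.8 CPM with vehicle and at 6.12, 3.20 and 0.992 CPM with rebamipide (log2 fold change -2.72, SE 0.74, adjusted p = 0.0477 in edgeR). In all 3 genes the lowest vehicle mouse was above the highest rebamipide mouse. Prc1, which bundles the microtubules of the central spindle, was also free of overlap (log2 fold change -2.70, adjusted p = 0.0677, edgeR). The groups of Tpx2, a spindle assembly factor, and of the cytokinesis motor Kif20a overlapped.

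In the deposited table, whose positions are on GRCm39, the called genes lie on several chromosomes. Bub1 (ENSMUSG00000027379) is at 127643036 to 127673785 on the minus strand of chromosome 2 and Nusap1 (ENSMUSG00000027306) at 119448779 to 119481725 on its plus strand. Kif11 (ENSMUSG00000012443) is at 37364851 to 37410307 on chromosome 19. Kif23 (ENSMUSG00000032254) is at 61823187 to 61854056 on chromosome 9, and Ndc80 (ENSMUSG00000024056) at 71803095 to 71833852 on chromosome 17. Nusap1 shares 172 bases with Oip5 on the opposite strand, and since the library protocol names no step that marks strand and the strand setting of the counting is not given, reads there cannot be assigned with certainty. The same holds for Ccna2, Mcm7, Kif20a, Cdc20, Cdc45, Cdca8, Ube2c and Prc1, each of which overlaps a gene on the opposite strand, and for Foxm1, which overlaps genes on its own strand.

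Of the 5 mitotic kinase and passenger genes 0 passed the adjusted threshold of edgeR (6.51% of all genes were called lower), and 0 were at an unadjusted p under 0.05 (18.8% of all genes were lower at that level). Plk1, a kinase that acts from mitotic entry to cytokinesis, was at 33.9, 11.4 and 5.77 CPM with vehicle and at 8.83, 1.33 and 0.420 CPM with rebamipide. Aurkb, the kinase of the chromosomal passenger complex, was at 34.0, 12.7 and 6.56 CPM with vehicle and at 8.79, 1.87 and 0.0763 CPM with rebamipide. In both genes rebamipide library 1 was above vehicle library 3, and the same was so for Birc5, a further subunit of that complex. The third complex subunit of the set, Cdca8, and the centrosome kinase Aurka did not overlap (log2 fold changes -2.58 and -1.56).

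Of the 3 transcription factors, 0 passed the adjusted threshold of edgeR or an unadjusted p under 0.05 (6.51% and 18.8% of all genes). Foxm1, an activator of mitotic genes, was at 46.1, 19.1 and 10.7 CPM with vehicle and at 14.5, 3.39 and 1.22 CPM with rebamipide (log2 fold change -1.99). E2f8, a repressor of E2F targets, was at 24.7, 10.7 and 5.60 CPM with vehicle and at 4.51, 1.60 and 0 CPM with rebamipide (log2 fold change -2.74). E2f1, an activator of replication genes, differed less, at 13.0, 9.24 and 6.91 CPM with vehicle and 7.51, 3.00 and 2.29 CPM with rebamipide (log2 fold change -1.19).

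Of the 11 replication genes, which copy the DNA or make its building blocks, 0 passed the adjusted threshold of edgeR (6.51% of all genes), with 5 at an unadjusted p under 0.05 (18.8% of all genes). Pcna, the clamp that holds DNA polymerase on its template, had the highest level per length of the 41 members in both groups. It was at 115, 62.1 and 60.7 CPM with vehicle and at 53.2, 42.1 and 38.8 CPM with rebamipide (log2 fold change -0.83, SE 0.31, adjusted p = 0.101 in edgeR). The subunits of the MCM helicase had log2 fold changes from -1.01 for Mcm7 to -2.0 for Mcm5. Mcm6 was at 120, 55.0 and 40 CPM with vehicle and at 37.4, 15.0 and 9.58 CPM with rebamipide, free of overlap. Mcm7 was at 91.2, 39.9 and 23.6 CPM with vehicle, and rebamipide library 1 at 35.9 CPM was above the lowest of these.

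Rrm1 and Rrm2 encode the subunits of ribonucleotide reductase, which makes deoxyribonucleotides, and they differed in size of change. Rrm1 was at 185, 88.2 and 64.2 CPM with vehicle and at 67.6, 45.9 and 33.4 CPM with rebamipide (log2 fold change -1.20). Rrm2, the subunit whose synthesis is tied to S phase, was at 76.2, 30.6 and 18 CPM with vehicle and at 19.8, 5.22 and 2.14 CPM with rebamipide (log2 fold change -2.20). Tyms, which makes thymidylate, had a log2 fold change of -1.40. Cdc45, a partner of the MCM helicase at the replication fork, was at 15.8, 8.24 and 6.16 CPM with vehicle and at 7.54, 11.3 and 8.85 CPM with rebamipide. Its groups overlapped fully (log2 fold change -0.13, SE 0.41, adjusted p = 0.838 in edgeR), and it was the single member for which the sign turned when vehicle library 1 or rebamipide library 1 was left out.

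The summed level of the replication members relative to the mitotic members differed from library to library. The 27 mitotic members summed to 1248, 610 and 338 CPM with vehicle and to 248, 84.2 and 29.6 CPM with rebamipide. The 11 replication members summed to 942, 431 and 307 CPM and to 339, 184 and 139 CPM. Replication over mitosis was thus 0.755, 0.706 and 0.909 with vehicle and 1.37, 2.19 and 4.71 with rebamipide. The ratio was above 1 in each rebamipide library and under 1 in each vehicle library. It compares summed RNA levels and does not measure the share of cells in each phase. In rebamipide library 3 the largest parts of the replication sum were Pcna (38.8 CPM) and Rrm1 (33.4 CPM). Rebamipide library 1 was above vehicle library 3 in 7 of the 11 replication members and in 7 of the 27 mitotic members, against 7440 of all 14875 genes, and the difference between the roles was not tested. In rebamipide library 3 the replication members were at a median of 18.9% of their vehicle mean (from 5.14% for Rrm2 to 88.0% for Cdc45) and the mitotic members at 2.53% (from 0% for Mki67 and Ttk to 34.5% for Cenpa). The ranges of the roles overlapped, and E2f8 was also at 0 counts.

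**Figure D3:**
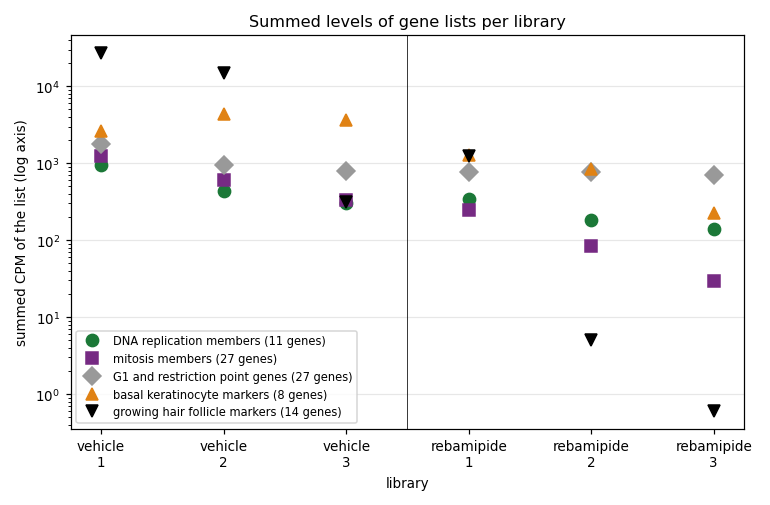
Summed CPM (log axis) of the replication members, the mitotic members, G1 genes and 2 marker lists in each library. The mitotic members go from 1248 CPM in vehicle library 1 to 29.6 CPM in rebamipide library 3, and the follicle markers from 27306 to 0.611 CPM, while the G1 genes lie between 701 and 1793 CPM.

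Markers of other cell types and the mitochondrial share differed between the libraries as well. Genes of the mitochondrial genome took 2.59%, 4.28% and 5.36% of the counts of vehicle libraries 1, 2 and 3 and 13.3%, 19.4% and 22.0% of those of rebamipide libraries 1, 2 and 3, so this share placed the 6 libraries in the reverse of the order seen in 22 members. The 14 genes of the growing hair follicle that the table holds (keratins of the inner sheath and shaft, and matrix factors such as Msx2 and Hoxc13) summed to 27306, 14654 and 311 CPM with vehicle and to 1241, 4.99 and 0.611 CPM with rebamipide. Krt25 and Krt27, inner sheath keratins, were at 0 counts in rebamipide libraries 2 and 3, and 6 and 11 of the 14 markers were at 0 counts there. All 14 follicle genes were higher in rebamipide library 1 than in vehicle library 3, so the groups overlapped in each of them, whereas rebamipide library 1 was above vehicle library 3 in 16 of the 41 members and in 7440 of all 14875 genes. Vehicle library 1, the highest for every member, was also the highest for the summed follicle markers. The 8 basal keratinocyte markers summed to 2644, 4331 and 3677 CPM with vehicle and to 1294, 832 and 224 CPM with rebamipide, with 2 of 8 (Krt14 and Krt15) at 0 counts in rebamipide library 3. Most of the sum in that library came from Itga6 (129 CPM) and Dst (79.8 CPM), and the other 6 markers were at 0 to 13.3 CPM each. By single genes, 7 of the 8 basal markers were free of overlap with the rebamipide mice lower (24.0% of all genes). Their median log2 fold change was -2.44, against -2.39 for the members, and 0 were called. Of 8 bulge stem cell markers, 4 were free of overlap in that direction and 1 was called lower, with a median of -2.05. The 8 fibroblast markers summed to 12351, 14487 and 18846 CPM with vehicle and to 15846, 3723 and 1979 CPM with rebamipide, and 8 skeletal muscle markers to 5118, 21738 and 25378 CPM and to 32616, 6951 and 261 CPM. The 9 leukocyte markers summed to 537, 1209 and 1390 CPM and to 1140, 531 and 340 CPM. In contrast to the members, endothelial markers (8 genes, 249 to 607 CPM with vehicle and 1135 to 1559 CPM with rebamipide) and erythroid markers (5 genes, 42.4 to 200 CPM and 345 to 809 CPM) had a higher summed level in each rebamipide library than in any vehicle library, as had the brown fat markers. By single genes, 7 of 8 endothelial, 5 of 5 erythroid and 6 of 8 brown fat markers were free of overlap with the rebamipide mice higher (24.5% of all genes). The exceptions were Vwf and Zic1, whose groups overlapped, and Elovl3, which was at 176, 129 and 238 CPM with vehicle and at 82.3, 83.1 and 33.3 CPM with rebamipide. The part of these cell types and of the mitochondrial share in the differences of the members was not tested.

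Genes of the same pathways outside the set were examined next. The counts of calls in the next lists are to be read against the 6.51% of all genes that edgeR called lower and the 14.1% called higher. Of 36 other replication genes, 1 was called lower and 0 higher, and their log2 fold changes had a median of -1.27. The gene called was Pola1, the catalytic subunit of DNA polymerase alpha, at 10.7, 6.74 and 5.71 CPM with vehicle and 2.14, 1.64 and 1.60 CPM with rebamipide (log2 fold change -2.10, adjusted p = 0.0163, edgeR). Of 60 other mitosis genes, 14 were called lower and 2 higher, with a median log2 fold change of -2.41. Among the lower ones were Smc2 and Smc4, the core of condensin, with log2 fold changes of -2.35 and -2.45, and the cytokinesis scaffold Anln with -2.45. The median differences of the replication and the mitosis genes outside the set were close to those of the members, -1.42 and -2.61.

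The 2 genes called higher stood against their list. Pttg1 encodes securin, the inhibitor of separase, and was at 16.4, 27.5 and 39.8 CPM with vehicle and 74.3, 89.2 and 99.7 CPM with rebamipide (log2 fold change 1.65, SE 0.35, adjusted p = 0.0256 in edgeR). Zwint, a kinetochore protein that is also abundant in neurons, was at 38.5, 43.3 and 50.2 CPM with vehicle and 79.5, 102 and 90.3 CPM with rebamipide (log2 fold change 1.04, SE 0.19, adjusted p = 0.0177 in edgeR). Neither gene was lower in any rebamipide library than in any vehicle library.

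The G1 and restriction point genes were less uniform. Of 27, 5 were called lower (Ccnd2, Ccne2, Skp2, Rbl1 and Myc) and 1 higher (Ccnd3), and the median over the list was -0.82 on the log2 scale. The D cyclins, which start the cycle in answer to growth signals, differed in direction. Ccnd2 was at 457, 225 and 180 CPM with vehicle and 111, 67.5 and 51.7 CPM with rebamipide (log2 fold change -1.90, adjusted p = 0.0377, edgeR). Ccnd3 was at 24.7, 26.5 and 35.2 CPM with vehicle and 43.6, 51.9 and 55.3 CPM with rebamipide (log2 fold change 0.80, adjusted p = 0.0462, edgeR), and it lost its call with upper quartile factors, RLE factors and scaling by total counts. Ccnd1 was at 255, 76.1 and 45.5 CPM with vehicle and 64.0, 23.7 and 18.4 CPM with rebamipide and did not pass. Myc, a driver of cell growth, was at 46.9, 26.9 and 29.8 CPM with vehicle and 17.0, 10.6 and 8.59 CPM with rebamipide (log2 fold change -1.52, adjusted p = 0.0348, edgeR).

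Of 21 inhibitors and quiescence genes, 20 were tested, 3 were called higher and 2 lower, and the median log2 fold change was -0.23. Cdkn1c, which encodes the CDK inhibitor p57, was at 11.6, 14.2 and 13.0 CPM with vehicle and 28.6, 58.1 and 59.4 CPM with rebamipide (log2 fold change 1.91, SE 0.33, adjusted p = 0.0153 in edgeR). Cdkn2c, which encodes the CDK4 and CDK6 inhibitor p18, was at 52.0, 69.1 and 102 CPM with vehicle and 132, 203 and 228 CPM with rebamipide (log2 fold change 1.33, adjusted p = 0.0408, edgeR). Ccng2, a cyclin linked to cell cycle arrest, had a log2 fold change of 1.07 (adjusted p = 0.0395, edgeR). The 2 lower genes were Cdkn2b, the inhibitor p15, and Foxo3, a transcription factor of quiescent cells, with log2 fold changes of -1.97 and -1.51. Cdkn1a, the p53 target p21, was at 270, 220 and 154 CPM with vehicle and 161, 249 and 261 CPM with rebamipide, and its groups overlapped. Without vehicle library 2 or rebamipide library 2, edgeR called 0 genes of these 4 lists. In these fits it called 0 and 1 of all genes, with 4116 and 4062 at an unadjusted p under 0.05. Without rebamipide library 3, edgeR called 0 of the other replication genes, 10 of the other mitosis genes, 0 of the G1 genes and 1 of the inhibitors. Calls over all genes also fell in that fit, to 1394 of 15327 (2.49% lower), from 3061 of 14875 with all libraries. The named G1 genes and Pola1 thus lost their calls in a fit with fewer mice and fewer calls. Whether their calls rested on that library was not tested. Without vehicle library 1 the counts of the 4 lists were 2, 4, 1 and 1, and 1886 of all 15055 genes were called (2.52% lower). DESeq2 called 12 of the other replication genes and 49 of the other mitosis genes, counting both directions. It called 5213 of all 16433 genes in the same way.

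**Figure D4:**
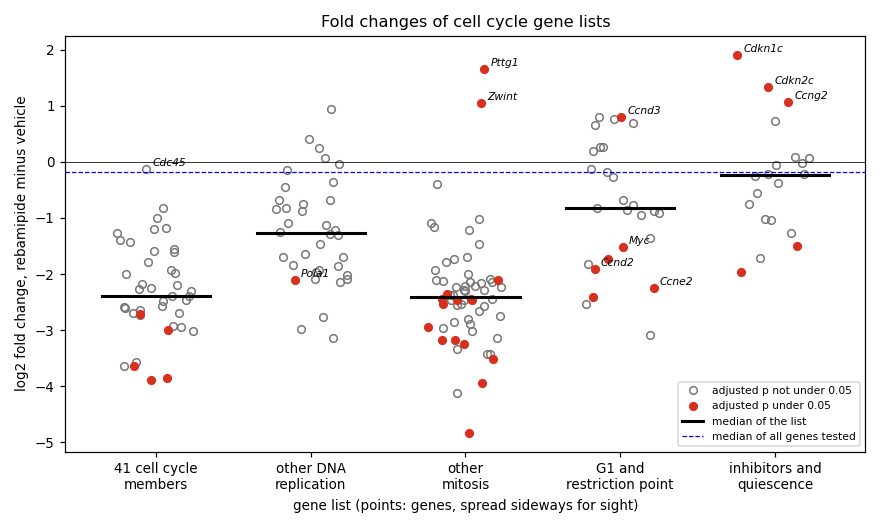
Log2 fold change (rebamipide minus vehicle) of each tested gene of 5 cell cycle lists, with genes at an adjusted p under 0.05 filled, black bars at the list medians and a dashed line at the median of all genes. The members and the other mitosis genes centre on -2.39 and -2.41, while the G1 genes (-0.82) and the inhibitors (-0.23) spread to both sides of 0.

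The fold changes also moved with the base composition of the transcripts. In the 14 members with the lowest GC content (41% to 45.7%) the median log2 fold change was -2.93, 4 were called and 13 did not overlap (35.3% of all genes of these GC contents). In the 14 with the highest GC content (50.1% to 58.3%) the median was -2.14, 0 were called and 5 did not overlap (17.4%). The middle 13 had a median of -2.20 and 1 call, and 7 did not overlap (25.2%). All genes tested with the same GC contents showed a tilt in the same direction, with medians of -0.41, -0.19 and -0.03 from low to high and 12.6%, 5.88% and 3.43% called lower. The replication members were spread over the 3 classes (3, 4 and 4 genes). With a GC correction in each library, added after these values were seen, 3 of the 5 calls remained (Kif11, Ndc80 and Nusap1, with 5.24% of all genes called lower) and the median was -2.40. Whether GC content or role goes with the size of the change was not tested.

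**Figure D5:**
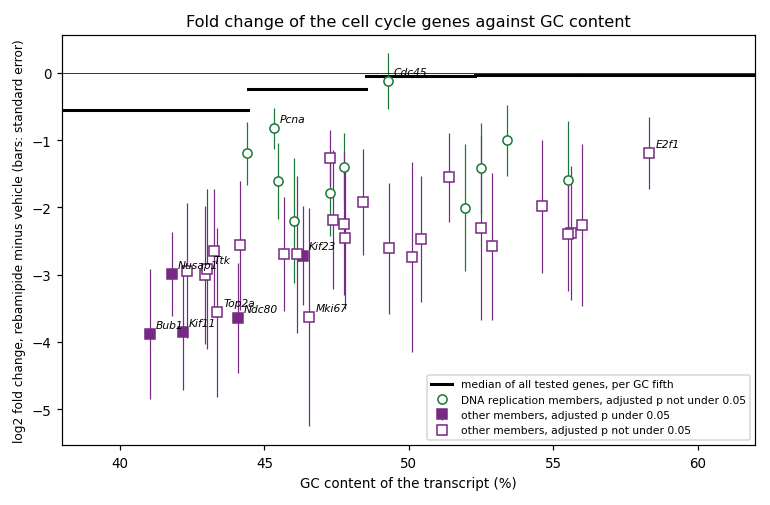
Log2 fold change (rebamipide minus vehicle, bars show the standard error) of the 41 members against the GC content of their transcripts in percent, with filled symbols for an adjusted p under 0.05 and black lines at the medians of all genes in 5 GC classes. The 5 called members lie at 46.3% GC or less, and all 41 members lie below the line of all genes at their GC content.

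The number of calls depended on which library was left out. Without rebamipide library 3, which lacked Krt14, 4 members were called by edgeR (Kif11, Ndc80, Nusap1 and Ttk, where 2.49% of all genes were called lower), and the median log2 fold change was -1.87. In that fit 17 members were lower at an unadjusted p under 0.05 (14.6% of all genes) and 17 at the thresholds of the study (13.0%). Without rebamipide library 1, 24 members were called (12.8% of all genes) and the median was -3.63. Without vehicle library 1, vehicle library 2 or rebamipide library 2 the count was 0 (2.52%, 0.00% and 0.00% of all genes), with 6, 10 and 5 members lower at an unadjusted p under 0.05 (14.4%, 11.9% and 10.9% of all genes), and without vehicle library 3 it was 3 (5.51%). DESeq2, the tool of the study, called 26 members lower with all libraries (15.5% of all genes), and 7, 20 and 5 in the 3 fits in which edgeR called 0 (12.7%, 13.0% and 9.00% of all genes). DESeq2 called 27 without vehicle library 3 (14.4% of all genes) and 18 without rebamipide library 3 (11.6%). At the thresholds of the study DESeq2 had 36 members lower with all libraries (16.6% of all genes) and 30 without rebamipide library 3 (14.3%). The direction was less dependent on the choice, with all 41 log2 fold changes under 0 in the fits without vehicle library 2 or 3 or rebamipide library 2 or 3, and 40 of 41 without vehicle library 1 or rebamipide library 1. Under the other settings the share of all genes called lower, against which the members' counts in the closing section are to be read, was 25.2% with total counts alone, 32.3% with limma on log2(FPKM + 1), 5.75% with the replicate block and 25.9% with DESeq2 without rebamipide library 1. At the thresholds of the study it was 20.5% with limma on log2(FPKM + 1), 14.0% with the replicate block, 10.6% without vehicle library 1, 9.29% without rebamipide library 2, 22.0% with DESeq2 without rebamipide library 1 and 14.2% with DESeq2 without vehicle library 2.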

How the data were processed

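Poly-A RNA of dorsal skin from 3 vehicle-treated and 3 rebamipide-treated mice was sequenced. The counts deposited by the authors are whole reads per gene without normalization, and the FPKM deposited by the authors are the counts per gene length and library. Per the submitters' processing notes, fastp 0.22.0, HISAT2 2.1.0, HTSeq 0.9.1 and the build GRCm39 were used, and the counting mode is not given in the sources used here. A GRCm39 genome was not used here, and promoter windows and GC contents came from GRCm38 references matched by gene name or ID.

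The main test was the one of edgeR 4.0.16 in R 4.3.3 (TMM factors, filterByExpr, quasi-likelihood test, Benjamini-Hochberg adjustment over 14875 genes). CPM are TMM-normalized. GC content was that of the longest protein-coding transcript in GENCODE. The tests were checked on simulated counts whose spread between replicates (dispersion) was set below the common dispersion of 0.262 fitted here. That check therefore does not show how the tests behave at the spread of these data. Replicates within a group differed by more than sampling noise, and same-numbered mice did not pair over all genes tested. The total count per library, 32709801 to 39915276, sets the precision of low values.

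Alternatives were DESeq2 1.42.0, limma-voom (limma 3.58.1), RLE and upper quartile factors, total counts alone, no filter, a replicate block, a filter of 10 or more counts in each sample, limma on log2(FPKM + 1), and leaving out each library. DESeq2 with libraries left out and GC offsets were added after seeing the data. The members and lists were chosen with earlier results of these data known. Any member could be named, and from each other list the 3 genes of highest CPM and at most 5 by smallest p. Of each marker list the first 2 genes could be named; Skp2, Krt15, Ucp1, Msx2, Hoxc13, Vwf, Zic1, Elovl3, Itga6 and Dst were named after their values were seen. Printed promoters were the 3 mitotic and 3 replication members with the most motif matches.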

Additional observations from a re-analysis of the deposited data

How the results depend on the processing

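The median log2 fold change of the members was under 0 in every fit, with a lowest and highest value of -3.63 and -1.66 when 1 library was left out. The number of members called lower (5 with edgeR) went to 26 with DESeq2, 11 with total counts alone, 31 with limma on log2(FPKM + 1) and 3 with GC offsets. At the thresholds of the study it was 36 with DESeq2 and 37 with limma on log2(FPKM + 1). Total counts alone moved the median of all genes from -0.17 to -0.78, and the members' median was then -2.89. Leaving out 1 library gave 0 to 39 members called lower over edgeR and DESeq2, 5 to 39 at the thresholds of the study and 24 to 40 without overlap. Among the fits of DESeq2, 20 were called without vehicle replicate 2 (32 at the thresholds of the study), 27 without vehicle replicate 3 and 18 without rebamipide replicate 3.

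Over all genes, counting both directions, 3061 of 14875 were called by edgeR and 5213 of 16433 by DESeq2. With total counts alone 5010 of 14875 were called, and with limma on log2(FPKM + 1) 6210 of 14875. In the fits of edgeR without 1 library, to which the ranges in this paragraph refer, 0 to 4781 were called. The list counts that follow cover both directions too. Other replication genes called were 12, 9 and 13 under these 3 alternatives and 0 to 6 without 1 library. With at least 10 counts in every sample they were 4, where 3667 of all 12659 genes were called. Other mitosis genes called were 49, 26 and 50, and 0 to 43 without 1 library. G1 genes called were 10 with total counts alone and 0 to 10 without 1 library. Inhibitors called were 9 with total counts alone, 11 with limma on log2(FPKM + 1) and 0 to 8 without 1 library. The fits that gave 0 calls are those of edgeR, with 4062 or more genes at an unadjusted p under 0.05.

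With the replicate block, 29 members were called lower and 37 at the thresholds of the study. Counting both directions, 13 other replication genes, 38 other mitosis genes and 2287 of all 14875 genes were called. Over all genes tested, the numbers did not pair the mice. The correlations of same-numbered deviations were -0.07, -0.03 and -0.04, and no mouse correlated best with its own number. The members alone were placed as 1, 2, 3 from high to low in both groups, in 40 of 41 for vehicle and 37 of 41 for rebamipide.

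The log2 fold change of Cdc45 turned to 0.33 without vehicle replicate 1 and to 0.0052 without rebamipide replicate 1, and its lowest value without 1 library was -0.38. That of Cdkn1a, 0.06 with all libraries, was -0.0074 with upper quartile factors, -0.59 with total counts alone, -0.013 with at least 10 counts in every sample and -0.55 with limma on log2(FPKM + 1), and lay between -0.13 and -0.016 in the 3 fits without vehicle replicate 3, rebamipide replicate 2 or rebamipide replicate 3 (highest 0.26, without rebamipide replicate 1). The cause of these shifts was not tested. With 10 of 41 members under 10 counts in at least 1 library, the levels of the rarest transcripts are limited by depth.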
